A study of Mus musculus with 4 samples.

Results

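Olfactory receptor genes (Olfr) were followed through 4 liver tumours as stretches of genomic DNA whose copy number was compared with that of reference DNA. The members were the array probes that carry a gene name beginning with Olfr and lie on an autosome, outside chromosomes 9, 12 and 15 and outside the window from 33500000 to 38500000 on chromosome 17. This rule used names and positions and no measured value. It gave 394 probes for 356 genes, of 159076 autosomal probes on the array, and left out 89 further Olfr probes for 68 genes. Of the 356 names, 348 matched a RefSeq symbol and 7 more a RefSeq synonym. RefSeq lists 1420 autosomal Olfr entries in its GRCm38.p6 annotation, 1104 of them protein coding, and 347 of the members are protein coding there. Of the other members, 1 is a transcribed pseudogene and 8 were given no gene type, so few members can be pseudogenes.

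The tumours came from 4 mice of the strain C57BL/6J in which Trp53, the gene of the tumour suppressor p53, was lost specifically in the liver, and the labels give Trp53-/- and male for both channels. The promoter that drives the loss and the age of the mice are not given in the sources used here, and the mice were not treated. Tumour DNA carried Cy5 and the reference Cy3 on all 4 arrays. The reference was DNA pooled from 3 littermates of the same sex, labelled as spleen, whereas the labelling protocol names liver. A change acquired in a tumour and a difference between mice cannot be told apart against such a pool. Tumours 1 and 2 shared a slide, as did tumours 3 and 4, and the tumour numbers carry no order. Every value below is log2 of tumour over reference signal after centring each array on the median of its autosomal probes, so that 0 stands for the array's usual copy number, 0.585 for 3 copies in place of 2, and -1.0 for 1 copy in place of 2, if every cell carried the change.

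Olfactory receptors are G protein-coupled receptors through which sensory neurons of the nose detect odorants, and each such neuron expresses mainly 1 allele of 1 receptor gene. Their genes form the largest gene family in the mouse. They lie in tandem clusters on many chromosomes, made by duplication, and the short, intronless coding sequences of neighbours are often very alike. Such clusters are known for copy number differences between mouse strains. Genomic DNA was measured here, so expression plays no part in the values and no expression marker can check the tissue.

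Signal was high but noise differed between the arrays. Of the spots that carry members, 99.0% to 100% were well above background in each channel. The SD between neighbouring probes was 0.137, 0.379, 0.158 and 0.167 on the arrays of tumours 1 to 4, and for tumour 2 the scanner software marked its own noise measure, 0.358, as unacceptable. The pairwise correlation of the 4 arrays over all autosomal probes was 0.14 to 0.50. X-linked probes averaged -0.82 and Y-linked probes 2.22 in tumour 1, against 0.84 and -2.35 in tumour 4, which goes against the labelled match in sex. All members are autosomal. The 2 Trp53 probes differed from each other: the one at chr11:69397121-69397180 read -0.53, -0.78, -0.073 and -0.76 in tumours 1 to 4, and the one at chr11:69404685-69404744 read 0.14, 0.51, 0.31 and 0.17.

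The coverage of the family was thin. Of the 356 genes, 334 had 1 probe, 15 had 2, 6 had 3 and Olfr56 had 12. Probes of 1 receptor gene therefore show best how far a value depends on the probe itself. The 3 probes of Olfr1164, at chr2:87933081-87933140, chr2:87933231-87933290 and chr2:87933561-87933620 (mm9), are shown because they lie within 1 gene and differ in base composition. They are printed as deposited, 5′ to 3′, with G and C in capitals. The strand is not given.
Olfr1164 probe 1: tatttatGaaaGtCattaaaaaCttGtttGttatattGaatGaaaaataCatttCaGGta
Olfr1164 probe 2: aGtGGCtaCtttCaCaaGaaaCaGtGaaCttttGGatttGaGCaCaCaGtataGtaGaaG
Olfr1164 probe 3: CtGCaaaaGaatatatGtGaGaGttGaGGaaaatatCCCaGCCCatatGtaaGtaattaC
In tumour 2 these probes, with 20%, 38.3% and 35.0% of G and C, read -1.07, 0.12 and 0.30. In tumour 1 they read 0.24, 0.17 and 0.24, so the same 3 positions were even there and far apart in tumour 2. In tumour 3 they read -0.024, 0.091 and -0.067, and in tumour 4 -0.16, 0.071 and 0.37.

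Olfr575, in the large cluster of chromosome 7, is shown for the same reason, with probes at chr7:110103156-110103215, chr7:110103814-110103859 and chr7:110104095-110104154.
Olfr575 probe 1: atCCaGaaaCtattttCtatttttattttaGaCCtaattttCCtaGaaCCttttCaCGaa
Olfr575 probe 2: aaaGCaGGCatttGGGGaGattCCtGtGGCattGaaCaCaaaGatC
Olfr575 probe 3: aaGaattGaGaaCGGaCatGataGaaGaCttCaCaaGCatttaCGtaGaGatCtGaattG
With 26.7%, 45.7% and 36.7% of G and C they read -0.56, 0.67 and 0.19 in tumour 2. They read 0.11, 0.20 and -0.11 in tumour 1, -0.12, 0.13 and 0.0093 in tumour 3, and 0.095, 0.35 and 0.11 in tumour 4. The probe richest in G and C was the highest of the 3 in every tumour.

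In Olfr1164 the probe richest in G and C was the highest in tumour 3 alone. Across the family, log2 ratio ran with GC mainly in tumour 2. The correlation of log2 ratio with the GC content of the probe over the 394 Olfr probes was 0.098, 0.472, 0.061 and 0.187 in tumours 1 to 4, and over the 87133 probes of other genes on the same chromosomes and windows 0.096, 0.289, 0.065 and 0.105. These are descriptions over probes that share an array. In tumour 2, the mean of Olfr probes was -0.265 under 33% GC and 0.336 at 42% and over, and that of other genes -0.285 and 0.371. Olfr probes differed from the rest in their range of base composition, with a mean GC of 36.8 ± 4.69% against 36.5 ± 2.71% for other genes (SD over probes). Only 61.2% of the Olfr probes had the full length of 60 bases, against 90.5% of the probes of other genes.

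**Figure D1:**
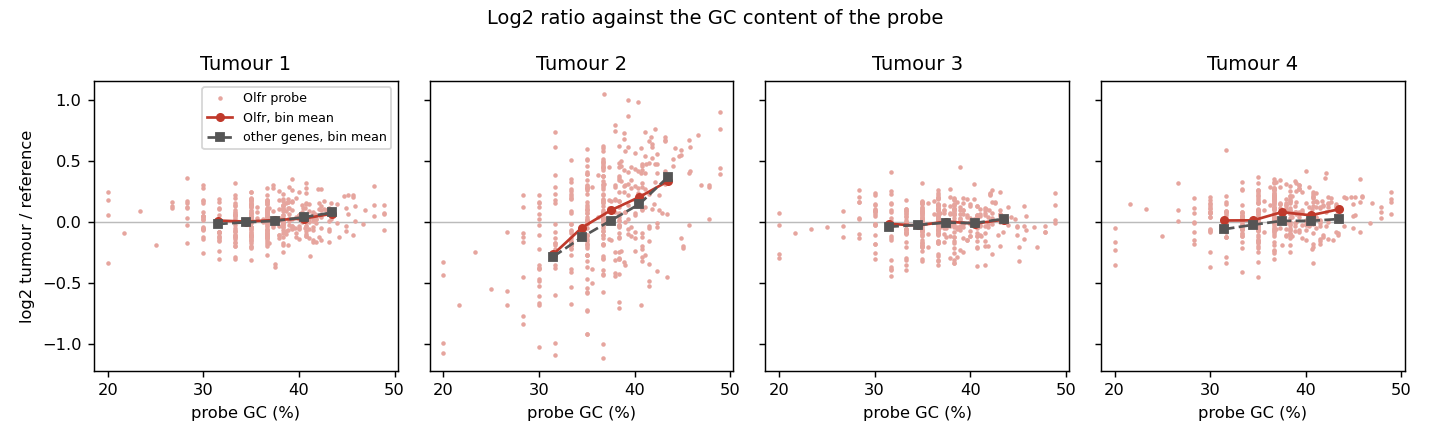
Log2 ratio of tumour over reference (y axis) against the GC content of the probe in percent (x axis) for each of the 394 Olfr probes (light points), with the means of Olfr probes (red line) and of probes of other genes (grey dashed line) in 5 GC bins, drawn at set positions along the axis. In tumour 2 both lines climb with GC, for Olfr probes to 0.336 in the highest bin, and in the other tumours they stay much flatter.

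As a family, the receptors sat near the array's usual copy number in every tumour. The mean of the 394 Olfr probes was 0.021, 0.055, -0.0078 and 0.053 in tumours 1 to 4 (0.030 ± 0.030, SD, n = 4), against 0.0078, -0.024, -0.011 and -0.0024 for probes of other genes (-0.0075 ± 0.014, SD, n = 4). The difference, Olfr minus other genes, was 0.013, 0.079, 0.0036 and 0.056. With the probe GC trend taken out of each array it was 0.00050, 0.049, 0.0046 and 0.058. All 4 differences lay above 0, and all were small beside the 0.585 of 1 extra copy. No test was made of this mean, since an exact sign-flip test over 4 tumours cannot go below p = 0.125.

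The SD over single probes was 0.132, 0.393, 0.147 and 0.154 for Olfr probes in tumours 1 to 4, against 0.148, 0.397, 0.161 and 0.175 for probes of other genes, so that tumour 2 showed almost no difference. The lowest and highest Olfr probe read -0.37 and 0.36 in tumour 1, -1.11 and 1.05 in tumour 2, -0.44 and 0.45 in tumour 3, and -0.45 and 0.59 in tumour 4. No Olfr gene reached 0.585 or -1.0 in tumours 1 and 3, where 0.108% and 0.0773% of other genes with 1 probe were at or above 0.585, and 0.0155% and 0% at or below -1.0. In tumour 4 Olfr786 alone did so, at 0.59, or 0.299% of the 334 Olfr genes with 1 probe against 0.108% of other such genes. In tumour 2, 30 Olfr genes were at or above 0.585 (8.98%, against 9.64% of other genes with 1 probe) and 3 at or below -1.0 (0.898%, against 2.09%).

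The probe of Olfr786 is printed as the highest member in tumour 4, at chr10:128874759-128874818, and its G and C are again in capitals.
Olfr786: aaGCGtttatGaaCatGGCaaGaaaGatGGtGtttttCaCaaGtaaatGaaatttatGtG
It read 0.59 in tumour 4, and 0.16, -0.17 and 0.16 in tumours 1 to 3. The nearest probes read 0.044 at 9521 bp to its left and 0.18 at 3641 bp to its right in tumour 4. The high value was thus that of 1 probe and was not shared by its neighbours.

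The family fell into 35 clusters, a cluster being a run of Olfr probes on 1 chromosome with gaps of at most 1 Mb. Of these, 18 held at least 5 genes, with 321 genes and 357 probes in all, and 17 smaller ones held 35 genes and 37 probes. Over the 18 clusters the median of the mean over tumours was 0.035, with a range from -0.093 to 0.222, and for the other probes inside the same spans it was -0.0096, with a range from -0.053 to 0.086. The Olfr mean was above 0 in all 4 tumours in 5 clusters and below 0 in all 4 in 1 cluster. The 17 smaller clusters had means over tumours from -0.22 to 0.22, with many resting on 1 probe.

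**Figure D2:**
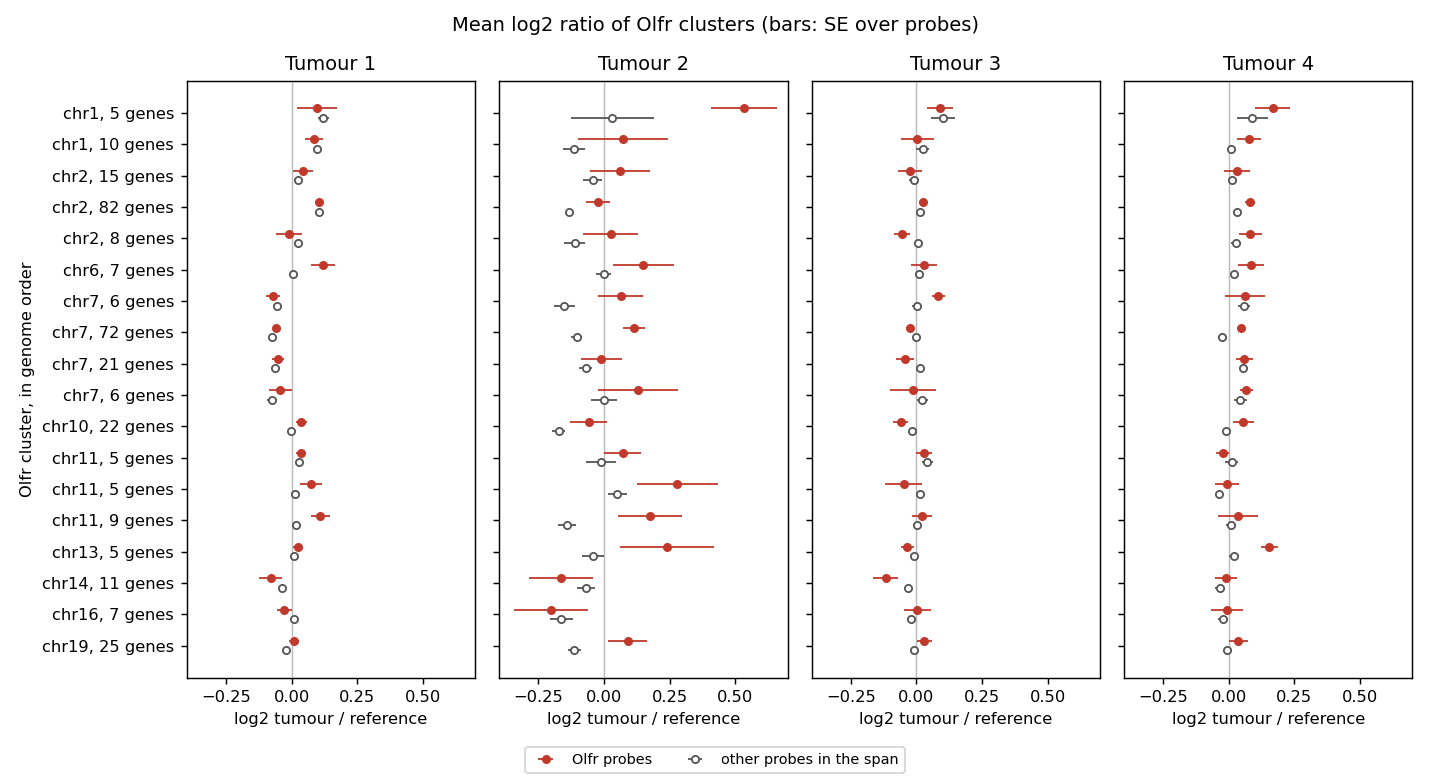
Mean log2 ratio of tumour over reference (x axes) of the 18 Olfr clusters with at least 5 genes, in genome order down the page, in each tumour. Filled red points are Olfr probes, open points the other probes inside the same span, and bars the SE over probes. Most points sit close to 0, the widest bars are those of tumour 2, and the 5-gene cluster of chromosome 1 reaches 0.53 there.

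The largest cluster lay at chr2:85254746-89989600, with 82 genes and 89 probes. Its Olfr probes averaged 0.106 ± 0.012, -0.023 ± 0.045, 0.026 ± 0.015 and 0.080 ± 0.017 in tumours 1 to 4 (SE over probes). The 590 other probes between them averaged 0.104, -0.134, 0.013 and 0.031, and probes within 1 Mb on either side 0.097, -0.037, 0.0029 and -0.049. All probes of chromosome 2 that are not Olfr probes, these included, averaged 0.036, -0.020, 0.0018 and 0.0070. In tumour 1 the receptors thus stood at the level of the DNA between and beside them, and in tumour 4 they lay above it by 0.049 and 0.128.

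The class I receptors, the more ancient, fish-like branch of the family, lie in a cluster on chromosome 7 around the beta-globin genes. Here it spanned chr7:109683252-112517840, held 72 genes and 80 probes, and included a probe of Hbb-bh1, an embryonic beta-like globin gene, at chr7:110990155-110990214. Its Olfr probes averaged -0.059, 0.114, -0.025 and 0.048 in tumours 1 to 4. The 313 other probes in the span averaged -0.076, -0.105, -0.0027 and -0.027. All probes of chromosome 7 that are not Olfr probes, these included, averaged -0.072, 0.019, 0.0087 and 0.0064. In tumour 1 the cluster lay close to the level of its chromosome, and in tumours 2 and 4 the Olfr probes lay above the probes between them.

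**Figure D3:**
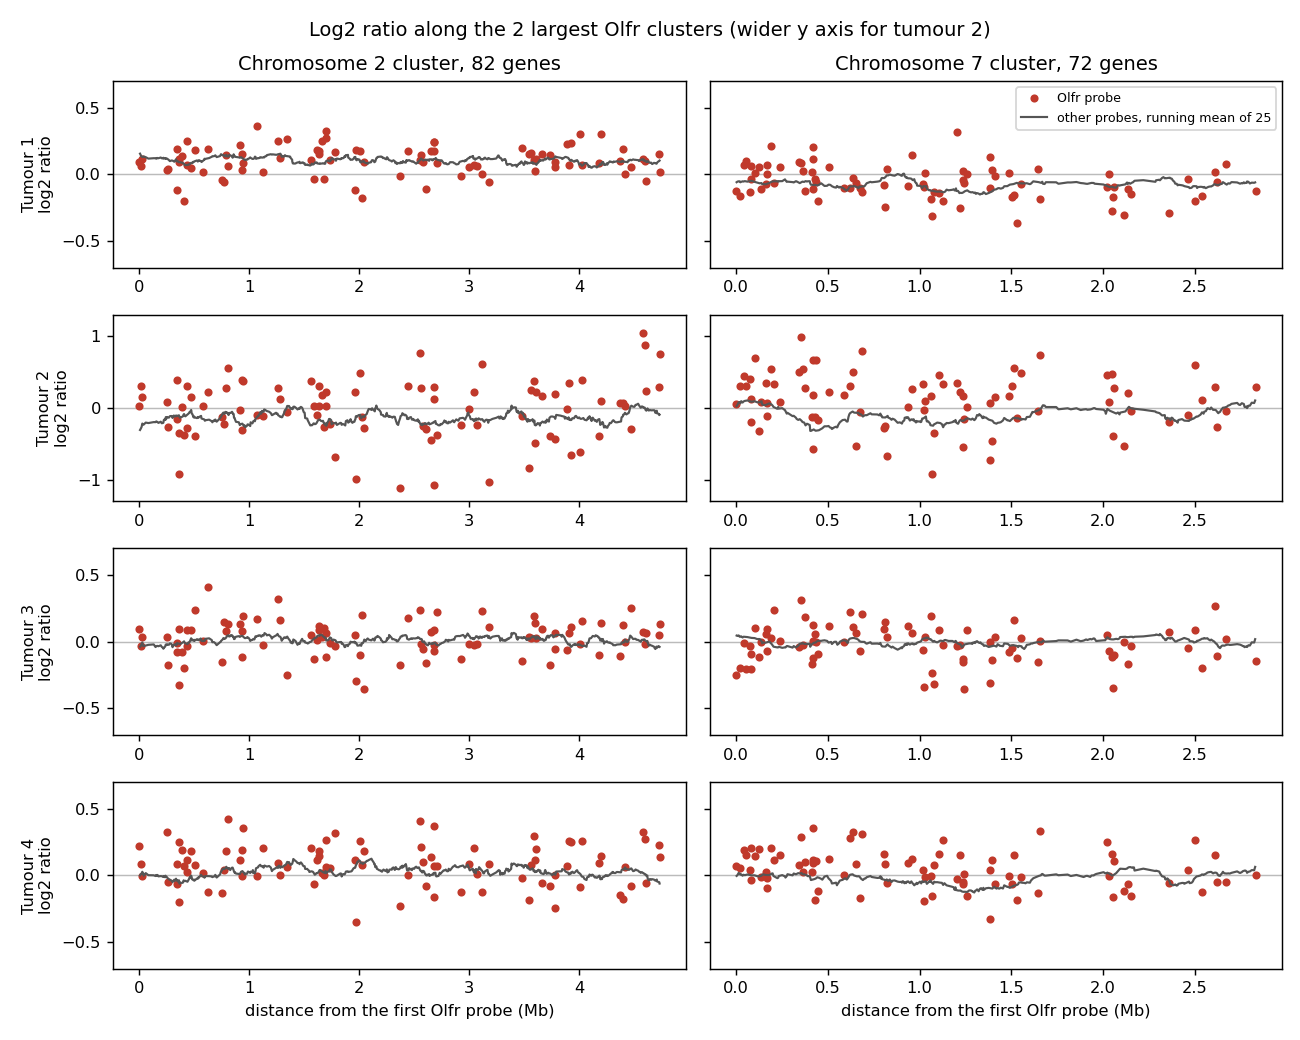
Log2 ratio of tumour over reference (y axes, wider for tumour 2) against the distance in Mb from the first Olfr probe, for the chromosome 2 cluster of 82 genes and the chromosome 7 cluster of 72 genes. Red points are Olfr probes and the grey line is the running mean of 25 other probes; in tumour 1 the line stays above 0 across the chromosome 2 cluster, where its probes average 0.104, and lies mostly below 0 across the chromosome 7 cluster, where they average -0.076.

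The other 3 clusters of chromosome 7 with at least 5 genes were also below 0 in tumour 1. Their Olfr means in that tumour were -0.071 for the 6 genes at chr7:93455570-93843317, -0.053 for the 21 genes at chr7:113821035-115898633 and -0.043 for the 6 genes at chr7:147348179-147837914. In tumour 4 the same clusters read 0.062, 0.059 and 0.067. Over tumours 2, 3 and 4 together they averaged 0.069 ± 0.012, 0.0015 ± 0.053 and 0.061 ± 0.073 (SD, n = 3). The 2 remaining clusters of chromosome 2 read 0.043, 0.061, -0.024 and 0.031 (15 genes at chr2:36277315-37123985) and -0.010, 0.025, -0.056 and 0.082 (8 genes at chr2:111110457-111882268) in tumours 1 to 4. None of these means reached 0.1 or -0.1 outside tumour 2.

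The highest mean over tumours belonged to the 5 genes at chr1:94376295-94494079, Olfr1416 to Olfr1411. They averaged 0.097, 0.534, 0.090 and 0.167 in tumours 1 to 4 (0.22 ± 0.21, SD, n = 4). Their probes had a mean GC of 42.5%, against 36.1% for the 9 other probes of the span, which averaged 0.120, 0.032, 0.10 and 0.090. With the GC trend removed the mean over tumours of the 5 genes was 0.139. The span's other probes were close to the Olfr probes in tumours 1 and 3 and far below them in tumour 2.

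The lowest belonged to the 11 genes at chr14:50513994-51690970, with 12 probes. They averaged -0.080, -0.164, -0.117 and -0.012 (-0.093 ± 0.064, SD, n = 4), and the 120 other probes of the span -0.037, -0.068, -0.031 and -0.036. These Olfr probes were poor in G and C, at 33.2% against 35.99% for the span's other probes. As measured, no other of the 18 clusters was below 0 in all 4 tumours. With the GC trend removed tumour 4 read 0.0029 and the mean over tumours was -0.068, and the 7-gene cluster of chromosome 16 was then the lowest, at -0.071. With the intensity trend removed the means of these clusters of chromosomes 14 and 16 were -0.051 and -0.065, and with normexp background correction -0.218 and -0.034.

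Another 3 clusters were above 0 in every tumour. The 7 genes at chr6:41721756-43167258 averaged 0.118, 0.15, 0.028 and 0.085 in tumours 1 to 4, against 0.0049, -0.0016, 0.0093 and 0.020 for the other probes of that span. The 9 genes at chr11:73168149-74161081 averaged 0.109, 0.175, 0.020 and 0.034, and the 25 genes at chr19:11929458-13902248 averaged 0.0081, 0.090, 0.031 and 0.037. Together with the 10 genes at chr1:175113605-176299084, which averaged 0.085, 0.072, 0.0029 and 0.078, and the 5-gene cluster of chromosome 1, these are the clusters above 0 in all 4 tumours.

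Signs differed between tumours in the others. The 22 genes at chr10:128427744-129647309 averaged 0.037, -0.059, -0.061 and 0.055, the 5 genes with 16 probes at chr11:48880455-49327281 averaged 0.035, 0.071, 0.029 and -0.024, and the 5 genes at chr11:58269185-59403500 averaged 0.075, 0.280, -0.048 and -0.0071. The 5 genes at chr13:21164484-21751114 averaged 0.023, 0.241, -0.034 and 0.154, and the 7 genes at chr16:58761252-59361638 averaged -0.028, -0.202, 0.0038 and -0.0075. Means beyond 0.2 or -0.2 in these clusters were those of tumour 2.

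Clusters followed their surroundings. Over the 18 clusters, which share an array, the correlation of the Olfr mean with the mean of the other probes in the span was 0.78, 0.64, 0.59 and 0.68 in tumours 1 to 4. The Olfr mean was above that of the span's other probes in 12, 16, 6 and 17 of the 18 clusters. With the GC trend removed these counts were 7, 13, 6 and 14, and with the trend on signal brightness removed 9, 11, 5 and 9. Brightness also differed from that of other genes at like GC. In the reference channel, Olfr probes with 36% to 39% GC lay 0.26 to 0.31 above the array's usual log2 brightness, against 0.06 to 0.07 for probes of other genes. Under 33% GC the order turned, with -0.64 to -0.51 for Olfr probes against -0.55 to -0.48 for the others. The part of base composition and brightness in the higher Olfr means of tumours 2 and 4 was not tested beyond these corrections.

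The spread of gene values was compared with that of other genes with as many probes, because a mean over more probes varies less. Among genes with 1 probe, the SD of the 334 Olfr genes was 0.131, 0.394, 0.152 and 0.154 in tumours 1 to 4, against 0.160, 0.447, 0.163 and 0.199 for 6470 other genes. Weighted over probe numbers, the ratio of Olfr SD to that of the others was 0.83, 0.882, 0.924 and 0.774 (0.852 ± 0.065, SD, n = 4). The Olfr genes thus varied less in all 4 tumours by this measure. With the median absolute deviation, which a few extreme genes do not move, the ratio was 0.997, 0.928, 0.975 and 0.917 (0.954 ± 0.038), closer to 1.

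The SD ratio was 0.946 ± 0.068 for 93 of 95 genes of vomeronasal receptors, which detect pheromones (SD over 4 tumours). It was 0.968 ± 0.022 for 198 of 209 genes of zinc finger proteins. Genes whose probe number too few genes shared were left out, among the Olfr genes Olfr56. In tumour 2 the vomeronasal ratio, 0.845, was below that of the Olfr genes. With the median absolute deviation the ratios were 0.929 ± 0.184 and 0.996 ± 0.091, so the order of the olfactory and vomeronasal families depended on the measure. Among the 22 Olfr genes with at least 2 probes, probes of 1 gene differed with an SD of 0.099, 0.377, 0.114 and 0.144 in tumours 1 to 4, while the gene means had an SD of 0.111, 0.256, 0.069 and 0.105. In tumours 2, 3 and 4 the probes of a gene thus differed more than the gene means did. This was not particular to the receptors. In 11480 other genes the SD within genes was 0.136, 0.3775, 0.158 and 0.164 in tumours 1 to 4. The SD of their gene means was lower in each, at 0.096, 0.247, 0.092 and 0.108.

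**Figure D4:**
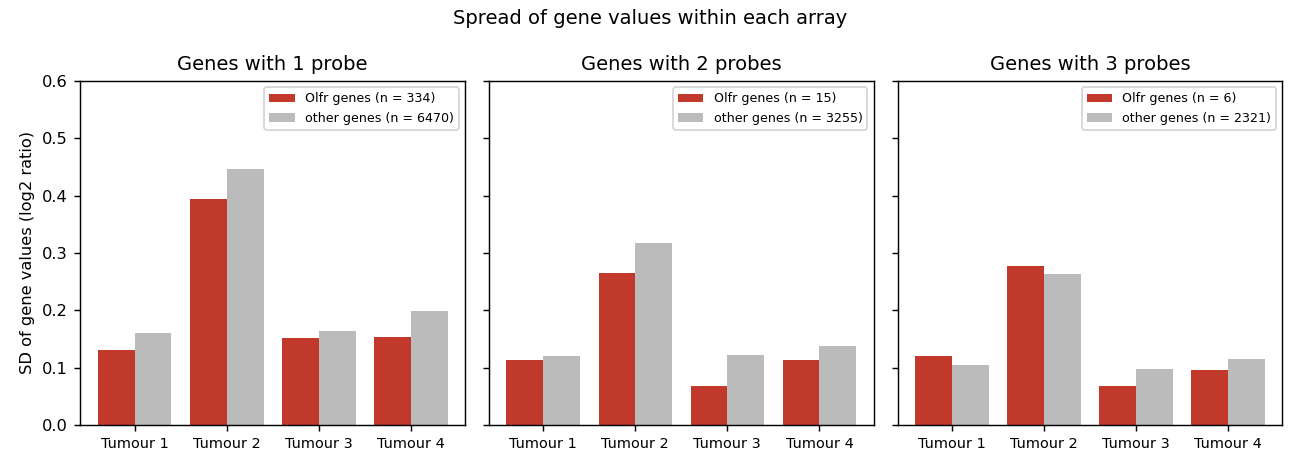
SD of gene values within each array (y axis, log2 ratio) for Olfr genes (red, left bar of each pair) and other genes on the same chromosomes and windows (grey, right bar), for genes with 1, 2 and 3 probes. Among genes with 1 probe the Olfr bar is lower in every tumour, at 0.131 against 0.160 in tumour 1, and the bars for 3 probes rest on 6 Olfr genes.

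Genes beyond 0.3 or -0.3 were counted among the 334 with 1 probe. In tumour 1, 5 Olfr genes were at or above 0.3 (1.5%, against 2.49% of other genes with 1 probe) and 5 at or below -0.3 (1.5%, against 3.32%). In tumour 2 the counts were 98 (29.3%, against 27.2%) and 54 (16.2%, against 20.6%). In tumour 3 they were 4 (1.2%, against 1.41%) and 19 (5.69%, against 4.93%), and in tumour 4 they were 17 (5.09%, against 3%) and 6 (1.8%, against 7.08%). The widest gap to the other genes, in percentage points, was that of low genes in tumour 4.

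Among the 22 genes with at least 2 probes, none passed 0.3 in either direction in tumours 1, 3 and 4, where 0.174%, 0.148% and 0.313% of other such genes were at or above 0.3 and 0.469%, 0.391% and 0.973% at or below -0.3. In tumour 2, Olfr1507 (0.42) and Olfr358 (0.36) were above, or 9.09% against 10.5% of other genes. Olfr1443 (-0.71), Olfr631 (-0.37) and Olfr722 (-0.36) were below, or 13.6% against 9.91%. These 5 gene names are given because the count is small.

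Opposite signs between tumours were rare, among the receptors as among other genes. None of the 18 clusters reached 0.1 in 1 tumour and -0.1 in another, and the other probes did so in 1 of the same spans, that of the 82-gene cluster. At 0.05 in place of 0.1, 5 Olfr clusters had opposite signs, at chr2 from 111110457, at chr7 from 93455570, 109683252 and 113821035, and at chr10 from 128427744, and 4 of them without tumour 2. The other probes did so in 4 of the 18 spans, and in 2 without tumour 2. The 4 clusters that remain without tumour 2 had tumour 4 above 0.05 and tumour 1 or 3 below -0.05.

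Stretches within clusters gave the same picture. Among 67 tiles of 5 consecutive Olfr probes, 0 were at or above 0.3 in 1 tumour and at or below -0.3 in another. Of 17420 tiles of other genes 0.201% did so, a share at which 0 of 67 does not set the receptors apart. The gap between the highest and lowest tumour had a median of 0.187 over Olfr tiles and 0.190 over tiles of other genes. Without tumour 2 the order turned, at 0.130 over Olfr tiles and 0.109 over tiles of other genes, and the largest gap of an Olfr tile was 0.243. Over all 4 tumours the gap reached 0.512 at most in an Olfr tile, that from Olfr1511 to Olfr1507 on chromosome 14, which read -0.059, 0.453, 0.058 and 0.081 in tumours 1 to 4. The next, from Olfr1158 to Olfr1164 on chromosome 2, read 0.116, -0.389, -0.014 and 0.014. Then came those from Olfr561 to Olfr571 on chromosome 7 (0.027, 0.477, 0.088 and 0.130) and from Olfr722 to Olfr728 on chromosome 14 (-0.132, -0.431, -0.123 and 0.018). The fifth, from Olfr547 to Olfr553 on chromosome 7, read -0.050, 0.305, -0.141 and 0.102, and the sixth was the 5-gene cluster of chromosome 1. In all 6 the tumour farthest from 0 was tumour 2, and the mean GC of the tiles ran with it: 41.6%, 39.3%, 43.7% and 42.5% where tumour 2 was high, 31.3% and 30.0% where it was low.

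Among genes with at least 2 probes, 0 of 22 had opposite signs at 0.3, near the 0.356% of other such genes. Among the 334 genes with 1 probe 2 did (0.599%, against 2.32% of other genes with 1 probe), both on chromosome 2. Without tumour 2 there were 0, against 0.896% of other genes with 1 probe. Their probes are printed, at chr2:87032762-87032821 and chr2:89258289-89258348, because they are the only members with opposite signs at this threshold.
Olfr1112: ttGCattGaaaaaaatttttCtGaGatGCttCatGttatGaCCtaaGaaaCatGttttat
Olfr1239: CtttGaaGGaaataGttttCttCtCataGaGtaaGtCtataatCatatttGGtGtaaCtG
Olfr1112 read 0.17, -0.69, -0.033 and 0.32 in tumours 1 to 4 on a probe with 26.7% GC, and Olfr1239 read 0.31, -0.61, -0.015 and -0.083 on a probe with 30.0% GC. The low tumour was tumour 2 in both. The nearest probes of Olfr1112 read -0.33 and -0.089 in tumour 2, and those of Olfr1239 -0.23 and -0.23, all less low than the receptor's own probe.

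At 0.2 and without tumour 2, 6 of the 334 genes with 1 probe had opposite signs (1.8%, against 3.35% of other genes with 1 probe), and 0 of the 22 with more. They were Olfr430, Olfr354, Olfr1090, Olfr676, Olfr802 and Olfr223, on chromosomes 1, 2, 7, 10 and 11. Olfr354 had the largest gap among these 6 over all 4 tumours, at 0.28, -0.68, -0.25 and -0.37 in tumours 1 to 4. The probes beside it read 0.34 and 0.15 in tumour 1 but -0.028 and 0.051 in tumour 4. The neighbours thus shared the sign of tumour 1 and not the low value of tumour 4.

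Gene means were tested against 0 over the 4 tumours with limma, across 13459 autosomal genes with at least 2 probes. None of the 22 Olfr genes had an adjusted p under 0.05 (Benjamini-Hochberg over all genes), and 0% of all genes did in either direction. At an unadjusted p under 0.05, 3 Olfr genes were higher (13.6%, against 7.95% of all genes) and 0 lower (against 11%). Over all 356 genes with at least 1 probe limma also called 0, and it called 0 of all 21411 such genes in either direction. At an unadjusted p under 0.05 in limma, 47 of the 356 were higher (13.2%, against 7.94% of all genes) and 19 lower (5.34%, against 9.46%). The test leaves out the spread of the pooled reference.

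The gene with the smallest p was Olfr1106 on chromosome 2, which read 0.16, 0.17, 0.10 and 0.17 in tumours 1 to 4. It was above 0 in 4 of 4 tumours, by 0.15 ± 0.032 (SD, n = 4), with an adjusted p of 0.112 in limma. With the slide as a random block limma gave an adjusted p of 0.0334, in a fit that called 3.56% of all genes higher and 4.79% lower, 8.35% together. This fit took a correlation of -0.34 within the 2 slides, and a negative correlation makes the error of the mean smaller. Over 16 alternatives the adjusted p of Olfr1106 in limma ran from 0.0334 to 0.941, the highest with the sign of tumour 4 turned. Turning 1 of 4 values of like sign draws their mean towards 0. That highest value therefore says nothing about how the result depends on the processing. Olfr449 on chromosome 6 had the highest mean of the tested genes, at 0.25, 0.29, 0.032 and 0.056 in tumours 1 to 4, with an adjusted p of 0.219 in limma.

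Of the 22 tested genes 6 had the same sign in all 4 tumours, 5 above 0 and 1 below. Those above were Olfr1106, Olfr449, Olfr355 (0.093 ± 0.071), Olfr575 (0.090 ± 0.076) and Olfr1020 (0.069 ± 0.066, SD, n = 4). The one below was Olfr69, a class I receptor gene near the beta-globin locus, at -0.0071, -0.19, -0.14 and -0.057 (-0.098 ± 0.081, SD, n = 4). Olfr355, Olfr575, Olfr1020 and Olfr69 had adjusted p of 0.295 to 0.401 in limma. Among the 334 genes with 1 probe, 101 had the same sign in all 4 tumours. The share over other genes was not counted, so neither count sets the receptors apart.

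Of 12 receptors with a known ligand or role, 5 were members, and none was beyond 0.3 outside tumour 2. Olfr78, a receptor of short-chain fatty acids that is also expressed outside the nose, in kidney and carotid body, read -0.068, 0.34, 0.24 and 0.11 in tumours 1 to 4. Olfr17, the P2 receptor used to trace sensory axons to their glomeruli, read 0.028, 0.22, -0.010 and 0.083. Olfr6 read -0.16, -0.53, -0.19 and 0.018, with its most distant value again in tumour 2. Olfr1507, also known as MOR28, read -0.13, 0.42, 0.018 and 0.13 over 3 probes. Its neighbour Olfr1509, which responds to a sulphur compound of male mouse urine, read 0.028, 0.64, -0.014 and -0.11. The 2 neighbours shared the high value of tumour 2 and no common sign elsewhere.

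Genes that receptors work with were read for comparison. One of them, Cnga4, which encodes a subunit of the olfactory ion channel, lies on chromosome 7, 38851 bp past the last Olfr probe of the 72-gene cluster, and its 1 probe read 0.27, -0.35, -0.011 and -0.32 in tumours 1 to 4. Of 19 listed genes of olfactory signalling and receptor choice 15 were on the array and 12 were tested. Of these 0 were called in limma, which called 0% of all genes. The median of the 15 means was -0.051, and without the 3 genes on chromosomes 9 and 12, which the rule leaves out, it was 0.019. It was -0.0083 over all 13459 genes tested and 0.020 over the 22 Olfr genes. The means farthest from 0 were those of Pde4a, a phosphodiesterase that breaks down cAMP (-0.26 ± 0.11, adjusted p = 0.0782 in limma), on chromosome 9, and of Emx2 (0.23 ± 0.39) and Lhx2 (0.20 ± 0.25), transcription factors of olfactory neurons (SD, n = 4). The values of Emx2 and Lhx2 in tumour 2, 0.76 and 0.57, were far above those of the other tumours, which ran from -0.16 to 0.24 and from 0.010 to 0.12.

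Of 15 listed trace amine receptors, the second receptor family of the nose, 4 were on the array and 1 was tested and not called. The median of the 4 means was -0.077. Taar9 read 0.30, 1.16, 0.092 and 0.31 in tumours 1 to 4, Taar1 -0.10, -0.57, -0.50 and -0.19, and Taar6 0.14, -0.67, -0.10 and -0.047, each on 1 probe. These genes lie together on chromosome 10 and did not share a sign.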

How the data were processed

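Genomic DNA of 4 tumours was hybridised against pooled reference DNA on 2-colour Agilent arrays. The authors used Agilent Feature Extraction, 12.0.1.1 per the file headers and 12.0.0 per the submitters' processing notes. Its deposited processed intensity is background-subtracted, detrended and linearly dye-normalized, with probe positions on mm9, per the file headers. The deposited log10 ratio served as an alternative, and the deposited flags (other) marked spots.

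Spots flagged as non-uniform or population outliers were left out, repeated probes averaged, and log2 of red over green centred per array on the autosomal median, with no loess. Gene values are means of probes. Genes with at least 2 probes were tested in limma 3.58.1 (R 4.3.3) with an intercept, and the procedure was tested on simulated data. Counts, spreads and cluster means carry no test. Most members have 1 probe, so counts for exactly 1 and at least 1 probe are given beside those for at least 2. The spread ratio uses 355 of the 356 genes, without Olfr56. The thresholds were 0.3 for genes and tiles and 0.1 for clusters. RefSeq supplied names, entry counts and gene types only, and tables were made with pandas 2.3.3.

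Named genes were those with at least 2 probes and 1 sign in all tumours (highest and lowest means), members of the known-receptor list, the 3 farthest of each further list, all clusters with at least 5 genes and the 6 tiles with the largest gaps. Members singled out as extremes, as the few of a small count or for their sequences were chosen after their values were seen. Opposite genes without tumour 2 and the spread over genes with at least 2 probes were added after seeing the data. Alternatives changed the background correction, signal, centring, trends, flags, probe minimum, thresholds, cluster gap, tile size, slide block and tumours used. Others turned the sign of all values of tumour 1 or of tumour 4, for limma and the means. The members, lists and thresholds were chosen with earlier results of these data known. The labels make each tumour a separate mouse. The number of arrays limits the precision.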

Additional observations from a re-analysis of the deposited data

Results flagged for a closer look

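Of 43 values of the family, clusters, genes and tiles examined, 4 had 1 tumour far from the other 3. Chance flags about 1 group in 20 when groups are not picked by their values. The tiles and several genes were picked in that way, so this rate is only a rough guide here. The cluster of chromosome 1 from 175113605 read 0.0029 in tumour 3, against a median of 0.078 in the others. The cluster of chromosome 7 from 93455570 read -0.071 in tumour 1, against 0.063 in the others, and the probes between its genes read -0.055 there. The cluster of chromosome 16 from 58761252 read -0.202 in tumour 2, against -0.0075 in the others, and the span's other probes read -0.163. The gene Olfr1106 read 0.102 in tumour 3, against 0.167 in the others.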

How the results depend on the processing

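No paired analysis was possible because the tumours form 1 group, each against a pooled reference. Of 115 values of the main results under the alternatives, 98 stayed near the reported one. Among these were counts that stayed at 0: 14 of limma calls, 14 of opposite genes, 13 of opposite clusters and 14 of opposite tiles. In sets this small a count of 0 has little room to move. For other counts, near meant an equal or similar number. For means and the spread ratio, near meant a shift smaller than the SD between tumours. That rule is loose for the mean of all Olfr probes, 0.030 with an SD of 0.030. There, 0.0035 with the sign of tumour 4 turned counted as near. The labels used could not mark a main result as reversed, so reversal was not assessed. Of 216 values of single cluster means, 9 moved by more than the spread between tumours. In all, 22 values, in 10 of 18 clusters, had the opposite sign. With no tumour's sign turned, these were 18 of 180 values, in 9 clusters. With the GC trend removed the clusters of chromosome 7 from 147348179 and of chromosome 11 from 58269185 were at -0.068 and -0.052, against 0.035 and 0.075 as reported, and that of chromosome 6 at 0.035, against 0.096. With the intensity trend removed that of chromosome 2 from 36277315 was at -0.025, against 0.028. With normexp background correction limma called 2 of 22 Olfr genes, Olfr449 (0.29, adjusted p = 0.0477) and Olfr722 (-0.35, adjusted p = 0.0245), in a fit that called 11% of all genes. Their adjusted p in limma reached 0.941 over 16 alternatives, with the sign of tumour 4 turned. That setting gave Olfr1106 the same value, so it does not single out these genes. The slide as a random block called 1 (correlation -0.34). Gene values beyond 0.3 or -0.3 were counted in each tumour and added up, so 1 gene can count more than once. The 5 reported became 12 with normexp, and 1 with the intensity trend or the GC trend removed. They became 213 with at least 1 probe, 2 with at least 3, 11 at a threshold of 0.2 and 1 at 0.5. Leaving each tumour out in turn gave 0 to 5, with 0 without tumour 2. Of the 213, tumour 2 held 100 at or above 0.3 and 57 at or below -0.3. These were 28.1% and 16% of 356 genes, against 16.5% and 13.8% of other genes, most of which had at least 2 probes. The spread ratio of 0.852 was 0.929 with normexp, 0.933 over genes with at least 3 probes and 0.954 with the median absolute deviation. The median cluster mean of 0.035 was 0.00050 with the intensity trend removed. Opposite genes were 2 with at least 1 probe and 1 at 0.2, and opposite clusters 5 at 0.05. The causes were not tested. Most genes had 1 probe, and the probe SD in tumour 2 was 0.379. Among genes with 1 probe, 8.98% of Olfr genes and 9.64% of other genes were at or above 0.585 in tumour 2. Even 1 whole extra copy of a single receptor could thus not be told from noise there, nor could small or partial changes.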
